A study of Mus musculus with 26 samples.

Results

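Entorhinal cortex was compared with hippocampus in mice carrying an amyloid precursor protein (APP) transgene. All 16 APP transgenic arrays of the series were used, of 26 in all. By their titles, 8 held entorhinal cortex and 8 held hippocampus, and the choice used no measured value. Each region had 4 arrays of APP transgenic animals treated with BDNF (brain-derived neurotrophic factor, a neurotrophin, whose receptor is TrkB) and 4 of APP transgenic animals treated with GFP (green fluorescent protein, the vector control). The same regional difference in non-transgenic mice was taken from 10 arrays, where each region had 2 arrays of animals treated with GFP and 3 of animals with a sham lesion. The mice were aged. A lentivirus had been given into the entorhinal cortex, and the dissected, snap-frozen tissue was taken 4 weeks after infection. The hippocampus was therefore not the infused tissue, and the sham animals carry no vector in these labels. No source used here gives the promoter that drives the transgene or the number of animals behind an array.

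The entorhinal cortex is the gateway between neocortex and hippocampus. Stellate and fan cells of its superficial layers send the perforant path to the dentate gyrus, whose granule cells drive the pyramidal cells of field CA3, which in turn drive field CA1. Field CA1 and the subiculum project back to the deep entorhinal layers. In Alzheimer's disease this circuit is among the earliest to lose neurons and synapses. The regions differ in their principal cells. Entorhinal cortex has the layered excitatory neurons of cortex, with transcription factors such as Cux2 in upper layers and Foxp2 in deep layers. The hippocampus has granule cells, which depend on Prox1, and pyramidal cells, which depend on Zbtb20. Its borders also hold white matter, ependyma and choroid plexus, while the entorhinal surface is covered by meninges.

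Values are log2 expression from Affymetrix arrays, 1 probe set per gene, and differences are entorhinal minus hippocampal on that scale with their standard errors (SE, 8 arrays per region). Array medians lay between 5.51 and 5.58. Over all probe sets, pairs of APP transgenic arrays of the same region correlated at 0.984 to 0.997, and pairs from different regions at 0.976 to 0.989. Set against the labels, the mean over 16 dentate granule cell genes was 6.88 to 7.14 on the entorhinal arrays and 8.21 to 8.72 on the hippocampal arrays. This list was chosen with earlier results of these data known, so it is no independent check of the labels. It also does not test whether the other arrays hold entorhinal tissue. App, the gene that the transgene is named for, did not separate the genotypes. It read 13.25 to 13.36 on entorhinal and 13.03 to 13.25 on hippocampal APP transgenic arrays, against 13.26 to 13.34 and 13.11 to 13.23 on non-transgenic arrays of entorhinal cortex and hippocampus. Thy1, a neuronal surface glycoprotein whose gene elements are often used to drive transgenes, did separate them. It read 13.53 to 13.99 on the 16 APP transgenic arrays and 12.30 to 12.67 on the 10 non-transgenic arrays. Whether this transgene carries such elements is not given, and the cause of the separation was not tested. Xist, the RNA of X inactivation, was above 7 on 8 of 16 APP transgenic arrays, 2 in each group of 4, and on 10 of 10 non-transgenic arrays. The labels name no animal that would link arrays of the regions, so whether the regions share animals is not known. The p-values treat the arrays as independent and measure the spread between them.

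The regions differed widely. Limma called 6266 of 14941 genes at an adjusted p under 0.05, which is 41.9%, with 2528 higher in entorhinal cortex (16.9%) and 3738 lower (25.0%). These shares are the background for the counts of called list members below. The signed median over all genes was -0.04. A difference of at least 1, a factor of 2 in expression, together with the call was reached by 222 genes higher in entorhinal cortex (1.49%) and 219 lower (1.47%). The 8 entorhinal arrays lay wholly above the 8 hippocampal arrays in 907 genes (6.07%) and wholly below them in 1388 (9.29%).

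Leading genes are the 12 per direction with the largest difference among called genes without overlap between the regions. Lack of overlap was a condition of that choice and is no further result. Of the 12 leading genes lower in entorhinal cortex, Dsp, Lct, Tdo2 and C1ql2 are on the dentate granule cell list and Spink8 and Pou3f1 on the pyramidal cell list. The remaining 6 are on neither list. The lists were chosen with earlier results of these data known, so membership and the list counts below are no independent support. Dsp encodes desmoplakin, which ties desmosomes to intermediate filaments. It read 3.82 at lowest, 4.07 at the median and 5.04 at highest on entorhinal arrays, against 8.52, 9.10 and 9.89 on hippocampal arrays. The difference was -4.88 ± 0.20 (limma adjusted p = 2.08e-11), and the highest entorhinal array lay far below the lowest hippocampal array. Pkp2, the desmosomal plaque protein plakophilin 2, differed in the same direction by -2.98 ± 0.10 (limma adjusted p = 6.46e-12). Lct, the intestinal lactase that is also a granule cell gene in mouse, read 4.78, 5.23 and 5.84 on entorhinal arrays, against 8.80, 9.12 and 9.76 on hippocampal arrays. It differed by -3.94 ± 0.15 (limma adjusted p = 1.52e-11). St18, a zinc finger transcription factor, had a highest entorhinal value of 5.33 and a median hippocampal value of 8.60, a difference of -3.73 ± 0.13. Its dimmer probe set differed by -1.50. Spink8, a serine protease inhibitor of the Kazal type, differed by -3.43 ± 0.18.

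The remaining genes of that group of 12 differed by -2.63 to -2.95. They were Lhx9, a LIM homeodomain transcription factor (-2.95 ± 0.27); Ccbe1, a secreted protein needed for lymphatic vessel growth (-2.95 ± 0.14); Tdo2, the liver-type tryptophan dioxygenase (-2.94 ± 0.14); and Shisa6, an auxiliary subunit of AMPA receptors (-2.90 ± 0.18). The dimmer probe sets of Tdo2 differed by -0.76 and -0.73. C1ql2, a synaptic organiser of mossy fibre synapses, differed by -2.80 ± 0.22. Npy2r, the neuropeptide Y receptor Y2, differed by -2.77 ± 0.29, and the POU-domain transcription factor Pou3f1 by -2.63 ± 0.21. Npy2r had the widest entorhinal spread of these genes, from 5.55 to 8.10 with a median of 7.0, and its difference was -3.38 on BDNF arrays and -2.16 on GFP arrays.

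Among genes higher in entorhinal cortex, Ccn2 differed most. It encodes a matricellular protein (connective tissue growth factor) and marks the deepest cortical neurons, the remnant of the subplate. Ccn2 read 9.25, 9.94 and 10.47 at the lowest, median and highest entorhinal array, against 6.42, 6.81 and 7.40 in hippocampus, a difference of 3.16 ± 0.18 (limma adjusted p = 6.51e-10). Glra3, the alpha 3 subunit of the glycine receptor, read 9.40, 9.76 and 10.31 in entorhinal cortex, against 6.25, 7.19 and 7.52 in hippocampus, and differed by 2.74 ± 0.15. Ptger3, the EP3 receptor for prostaglandin E2, read 6.83, 7.18 and 7.78 in entorhinal cortex, against 3.86, 4.24 and 4.78 in hippocampus, and differed by 2.86 ± 0.13. Prkg2, the cyclic GMP-dependent kinase type II, differed by 2.56 ± 0.12, and its other probe sets by 2.97 and 2.71.

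A second kind of gene in that group codes for transporters and matrix proteins, and its entorhinal arrays were more spread. Slc26a7, an anion exchanger, read 5.12, 6.34 and 7.61 in entorhinal cortex, against 2.92, 3.30 and 3.52 in hippocampus (difference 3.02 ± 0.28). Prg4, the lubricating proteoglycan lubricin, read 5.07, 6.77 and 8.45, against 3.37, 4.15 and 4.66 in hippocampus (2.78 ± 0.37). Fmod, the collagen-binding proteoglycan fibromodulin, differed by 2.68 ± 0.23, and Slc47a1, an exporter of organic cations, by 2.66 ± 0.22. Like all leading genes, these 4 were chosen among genes without overlap. The mean over 13 genes of meninges and fibroblasts was 7.11 to 8.09 on entorhinal arrays and 6.71 to 7.24 on hippocampal arrays, and its part in these differences was not tested.

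The other higher genes were Dsc3, a desmosomal cadherin (2.95 ± 0.22), Gpr6, a G protein-coupled receptor of striatal neurons (2.61 ± 0.15), Dtl, a substrate receptor of an E3 ubiquitin ligase (2.56 ± 0.11), and the predicted gene Gm12371 (2.55 ± 0.13). Probe sets of a gene did not always give the same size. For Dsc3, Slc26a7, Ptger3 and Glra3, the dimmer probe set not used here differed by 0.25, 0.15, 0.32 and 0.15. Of the 5 dimmer probe sets of Dtl, 1 differed by 1.03 and the others by at most 0.43.

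**Figure D1:**
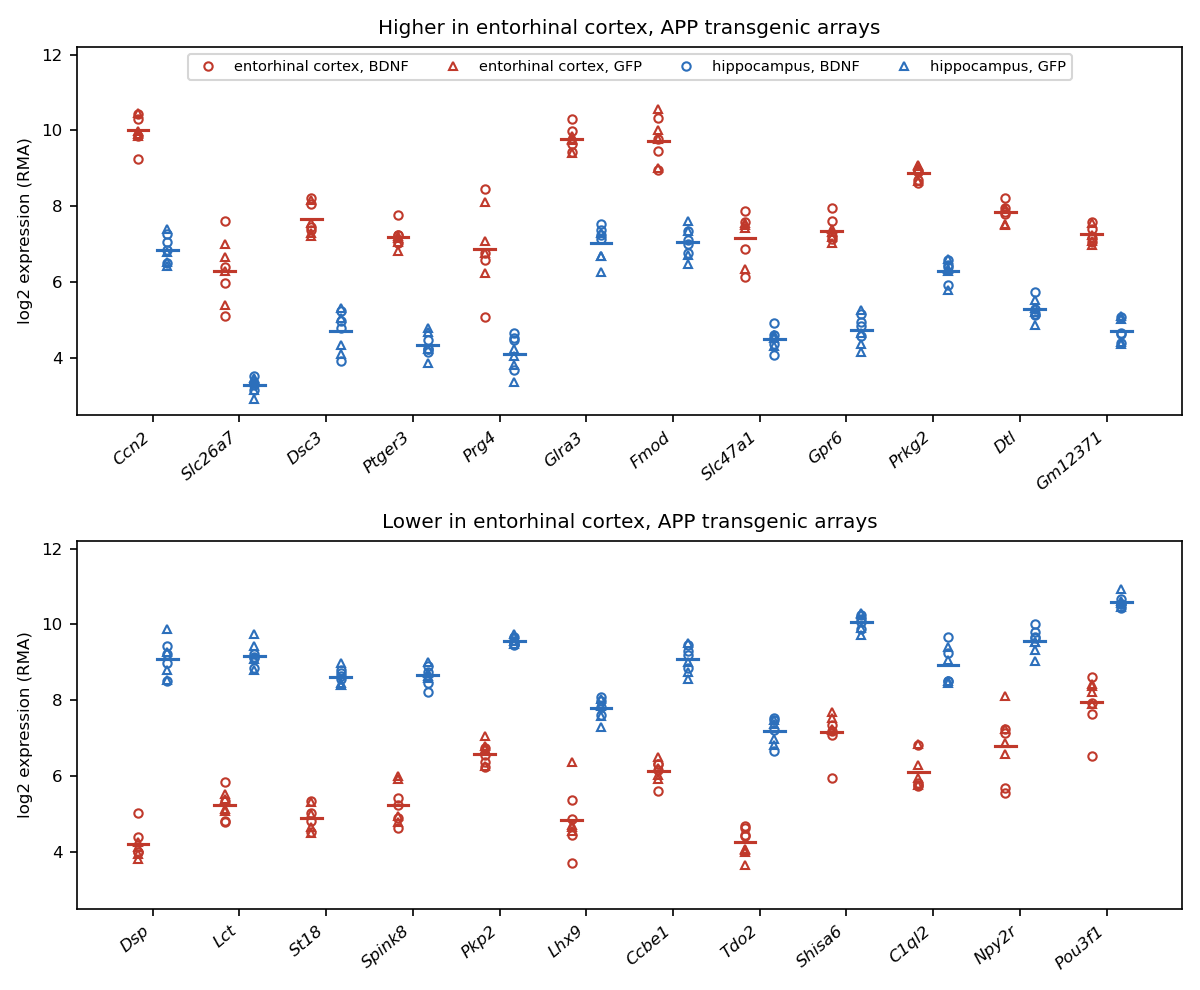
Log2 expression (vertical axis) of the 12 genes per direction with the largest regional difference on the APP transgenic arrays. Each point is an array, red for entorhinal cortex and blue for hippocampus, circles for BDNF and triangles for GFP, and the bar is the mean of 8 arrays. The 24 genes were chosen among called genes without overlap. The widest gap is that of Dsp, at 3.82 to 5.04 in entorhinal cortex and 8.52 to 9.89 in hippocampus.

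The promoters of some of these genes are shown because their genes moved together and because regional transcription factors with known DNA motifs moved too (Neurod2, Neurod6 and Lhx9, described further on). Of the 24 leading genes, 12 matched a promoter window in RefSeq (GRCm38.p6), which runs from 250 bases before to 50 bases after the start of the gene. Searched on both strands, the E box motif CAGNTG, to which NeuroD factors bind, was present in 7 of the 12 windows, namely 4 of 6 genes higher in entorhinal cortex and 3 of 6 lower. It was present in 51.4% of all 32851 windows, so these counts stand near the background. The homeodomain motif TAATTA was in 0 of the 12 windows and in 5.29% of all. Shown 5′ to 3′ on the strand of the gene, with each E box in capitals, are 2 genes higher in entorhinal cortex, Ptger3 (chr3:157566626-157566925, plus strand) and Glra3 (chr8:55940168-55940467, plus strand), and 2 genes lower, Dsp (chr13:38151044-38151343, plus strand) and Lct (chr1:128328269-128328568, minus strand). Lct had 2 E boxes and the others 1 each. A match is a string of letters, and binding was not measured.
Ptger3: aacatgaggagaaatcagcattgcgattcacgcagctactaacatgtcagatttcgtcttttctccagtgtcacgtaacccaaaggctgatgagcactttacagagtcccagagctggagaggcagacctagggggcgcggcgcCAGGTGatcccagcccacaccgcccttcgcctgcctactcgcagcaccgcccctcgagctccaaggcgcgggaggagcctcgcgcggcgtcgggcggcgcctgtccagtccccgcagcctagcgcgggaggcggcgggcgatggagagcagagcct
Glra3: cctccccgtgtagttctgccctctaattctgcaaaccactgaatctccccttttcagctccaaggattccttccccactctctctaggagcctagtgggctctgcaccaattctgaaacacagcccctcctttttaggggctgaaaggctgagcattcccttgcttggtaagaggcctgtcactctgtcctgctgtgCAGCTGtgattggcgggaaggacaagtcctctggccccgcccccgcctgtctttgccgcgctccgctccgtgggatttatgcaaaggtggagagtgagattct
Dsp: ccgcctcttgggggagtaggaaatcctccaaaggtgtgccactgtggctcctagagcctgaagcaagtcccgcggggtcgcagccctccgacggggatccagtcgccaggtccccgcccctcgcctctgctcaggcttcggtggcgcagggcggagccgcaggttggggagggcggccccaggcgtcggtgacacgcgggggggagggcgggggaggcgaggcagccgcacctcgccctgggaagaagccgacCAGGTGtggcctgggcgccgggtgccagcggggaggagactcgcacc
Lct: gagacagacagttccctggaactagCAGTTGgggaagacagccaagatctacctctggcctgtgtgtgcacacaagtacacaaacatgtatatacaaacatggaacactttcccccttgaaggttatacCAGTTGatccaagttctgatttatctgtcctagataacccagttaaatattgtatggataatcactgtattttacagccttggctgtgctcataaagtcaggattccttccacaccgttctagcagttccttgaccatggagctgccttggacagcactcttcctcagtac

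Of 16 dentate granule cell genes, 13 were lower in entorhinal cortex and 1 higher, with a median of -0.60. Of 17 pyramidal cell genes of fields CA1 to CA3, 13 were lower and 2 higher, with a median of -1.36. Over all genes tested, 25.0% were lower and 16.9% higher. Beside Dsp, Lct, Tdo2 and C1ql2, the granule cell list held Prox1, the homeodomain factor that maintains granule cell identity, at -2.18 ± 0.20. Fibcd1, a chitin-binding transmembrane protein of CA1, read 7.05, 7.47 and 8.17 in entorhinal cortex, against 9.10, 9.35 and 9.63 in hippocampus, and differed by -1.86 ± 0.14. Zbtb20, which specifies CA1 pyramidal cells, differed by -1.78 ± 0.13, and Iyd, an iodotyrosine deiodinase, by -1.85 ± 0.12. Prox1 and Zbtb20 are named after their values were seen, as the regulators of these cell types. In bulk tissue, fewer cells of a type and less RNA per cell cannot be told apart.

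Members of these lists that went the other way are expressed in cortex as well. Calb1, the calcium buffer calbindin, is a granule cell gene that stellate and pyramidal neurons of superficial entorhinal cortex also express. It read 11.37, 11.89 and 12.45 on entorhinal arrays, against 11.03, 11.38 and 11.50 on hippocampal arrays, and was higher by 0.53 ± 0.13 (limma adjusted p = 0.0031) with overlapping arrays. Ccn3, a relative of Ccn2, was higher by 1.14 ± 0.07, and its arrays did not overlap. Mpped1, a metallophosphoesterase domain protein, was higher by 0.36 ± 0.06.

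Genes of cortical layers were higher in entorhinal cortex more often than lower. Of 13 genes of layers 2 to 4, 7 were higher and 3 lower (median 0.34), and of 20 genes of layers 5 and 6 and the subplate, 11 were higher and 4 lower (median 0.34). The shares over all genes were 16.9% higher and 25.0% lower. Cux2, a homeodomain factor of upper-layer neurons, read 9.40, 9.57 and 10.07 on entorhinal arrays, against 7.33, 7.55 and 7.85 on hippocampal arrays. The difference was 2.10 ± 0.11 (limma adjusted p = 4.19e-10), while its dimmer probe sets read -0.04 and 1.18. Plxnd1, a receptor for semaphorins, differed by 1.92 ± 0.11, and Mef2c, a transcription factor that limits excitatory synapse number, by 1.74 ± 0.06. All 4 other probe sets of Mef2c read between 1.82 and 2.71. Lamp5, a vesicular membrane protein of cortical neurons, had a smaller difference of 1.20 ± 0.05 that was even across arrays.

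Of the deep-layer genes other than Ccn2, Cplx3, a complexin of subplate neurons, read 7.70, 8.16 and 8.31 in entorhinal cortex, against 5.76, 6.27 and 6.63 in hippocampus, and differed by 1.79 ± 0.12. Foxp2, a forkhead factor of corticothalamic cells, differed by 1.67 ± 0.09. Deptor, an inhibitor of the mTOR kinase, differed by 1.67 ± 0.09. Lower members included Nectin3, a cell adhesion molecule of the upper-layer list that hippocampal cells also express (-1.63 ± 0.11, with dimmer probe sets from -1.82 to 0.24), and Hs3st4, a heparan sulfate sulfotransferase of deep-layer cells (-0.87 ± 0.07). Bcl11b, a zinc finger factor of subcortically projecting neurons that granule cells and CA1 also express, was lower by 0.30 on the log2 scale (-0.30 ± 0.08) with overlapping arrays.

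Transcription factors that pattern the forebrain moved both ways, with 10 of 21 higher and 7 lower, where 16.9% of all genes were higher and 25.0% lower. Nr2f2 (COUP-TFII), which is graded toward caudal and lateral cortex during development, read 9.16, 9.46 and 10.16 in entorhinal cortex, against 7.31, 8.26 and 8.73 in hippocampus, and was higher by 1.31 ± 0.18 (limma adjusted p = 1.61e-05). Zic1, a zinc finger factor, was higher by 1.03 ± 0.16, Meis2, a homeodomain cofactor, by 0.98 ± 0.11, and the chromatin organiser Satb1 by 0.94 ± 0.09. Neurod6, a basic helix-loop-helix factor of excitatory neurons, read 9.29, 9.67 and 10.24 in entorhinal cortex, against 10.90, 11.06 and 11.20 in hippocampus. It was lower with a difference of -1.34 ± 0.12, its relative Neurod2 with -0.72 ± 0.09, and the hippocampal patterning factor Emx2 with -0.79 ± 0.11. Apart from these, Lhx9 was the member with the largest difference.

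Of 11 genes used as markers of adult neurogenesis, which takes place in the dentate gyrus, 4 were higher in entorhinal cortex and 0 lower. The other 7 were not called, as were 8675 of all 14941 genes, and the median was 0.03. Of all genes, 16.9% were higher and 25.0% lower. Dcx, a microtubule-binding protein of migrating neurons, read 7.29, 7.56 and 7.76 on entorhinal arrays, against 6.22, 6.44 and 6.77 on hippocampal arrays, and was higher by 1.06 ± 0.08 (limma adjusted p = 3.52e-08). Sox11 was higher by 0.72 ± 0.24, the neuronal tubulin Tubb3 by 0.54 ± 0.08 and Sox4 by 0.22 ± 0.07, all 3 with overlapping arrays.

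Of 16 subunits of AMPA, NMDA and kainate receptors, 4 were higher in entorhinal cortex and 4 lower, near the 16.9% higher and 25.0% lower of all genes. Among AMPA receptor subunits, Gria4 was higher by 0.97 ± 0.06 and Gria1 lower, with a difference of -1.34 ± 0.08. Gria1 read 10.27, 10.65 and 10.91 in entorhinal cortex, against 11.74, 11.97 and 12.17 in hippocampus, with no overlap. Among kainate receptor subunits, Grik3 was higher by 0.96 ± 0.11 and Grik1 by 0.71 ± 0.11, while Grik4, which is concentrated in CA3, differed by -1.47 ± 0.10. The modulatory NMDA receptor subunit Grin3a was higher by 0.51 ± 0.09, with overlapping arrays.

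Metabotropic glutamate receptors went 1 way. Of 6 tested, 5 were higher in entorhinal cortex and 0 lower, with a median of 0.52, beside 16.9% and 25.0% of all genes. Grm8, a presynaptic group III receptor, read 6.71, 6.99 and 7.27 in entorhinal cortex, against 5.05, 5.67 and 5.98 in hippocampus (1.37 ± 0.12, limma adjusted p = 1.61e-07). Grm3, a group II receptor of neurons and astrocytes, was higher by 0.79 ± 0.09, Grm4 by 0.63 ± 0.08 and Grm7 by 0.41 ± 0.06, each without overlap. The member not called was Grm2 (0.24 ± 0.15, limma adjusted p = 0.212), named after its values were seen.

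Of 9 subunits of the GABA-A receptor, 4 were higher and 1 lower, beside 16.9% and 25.0% of all genes. Gabra3 was higher by 1.10 ± 0.13 without overlap. Gabra5, the subunit of the extrasynaptic receptors of hippocampal pyramidal cells, read 9.35, 9.56 and 9.87 in entorhinal cortex, against 10.26, 10.41 and 10.53 in hippocampus, and differed by -0.82 ± 0.07 (limma adjusted p = 5.19e-08). Gabra2 was higher by 0.46 ± 0.11 on its brightest probe set, while 2 others read -0.15 and -0.40, and the call was lost with the mean of its probe sets (0.02, limma adjusted p = 0.823).

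Receptors for monoamines, acetylcholine and peptides were also divided, with 8 of 20 higher and 5 lower, beside 16.9% and 25.0% of all genes. Cckbr, the cholecystokinin receptor of the brain, read 8.62, 8.85 and 9.34 in entorhinal cortex, against 6.49, 6.89 and 6.96 in hippocampus (2.09 ± 0.09, limma adjusted p = 5.05e-11). Ntsr1, the neurotensin receptor that marks layer 6 cells, was higher by 1.54 ± 0.10 and the dopamine receptor Drd1 by 1.31 ± 0.20. The serotonin receptor Htr1b was higher by 0.69 ± 0.13, while its dimmer probe set read -0.04. In the other direction, the serotonin receptor Htr4 differed by -2.05 ± 0.18, the nicotinic receptor subunit Chrna7 by -0.99 ± 0.09 and the muscarinic receptor Chrm1 by -0.58 ± 0.09. All 7 of these genes were without overlap between the regions.

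Potassium channels (6 of 30 higher, 10 lower) and sodium, calcium and cation channels (7 of 24 higher, 8 lower) gave medians of -0.07 each, close to that of all genes. The shares over all genes were 16.9% higher and 25.0% lower. Kcnf1, a silent modulatory subunit, was higher by 1.35 ± 0.13, and the calcium-activated channel Kcnma1 by 0.81 ± 0.13. Kcnab2, a beta subunit, differed by -1.11 ± 0.07, and Kcnd2, the A-type channel of dendrites, by -0.84 ± 0.07. The dimmer probe sets of Kcnd2 read -0.454, 0.015 and -0.032. Cacna1h, a low-threshold T-type calcium channel, read 7.48, 7.69 and 7.95 in entorhinal cortex, against 8.90, 9.11 and 9.33 in hippocampus (-1.42 ± 0.07, limma adjusted p = 1.43e-10). Trpc4, a cation channel, differed by -1.27 ± 0.13.

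Of 20 genes of the vesicle release machinery, 7 were higher and 6 lower, beside 16.9% and 25.0% of all genes. The vesicular glutamate transporters were opposed, with Slc17a6 higher by 1.17 ± 0.21 and Slc17a7 lower, with a difference of -0.78 ± 0.20. Slc17a6 read 8.92, 9.19 and 9.51 on entorhinal arrays, against 7.08, 7.92 and 8.89 on hippocampal arrays, and Slc17a7 read 8.38, 8.57 and 9.07, against 8.96, 9.21 and 10.69. Stx1a, a syntaxin of the presynaptic membrane, was higher by 1.01 ± 0.06 and the active zone scaffold Pclo by 0.66 ± 0.09. Vamp1, a vesicle SNARE, differed by -1.04 ± 0.16 and Cplx2, a complexin, by -0.66 ± 0.07. The dimmer probe sets of Cplx2 read -0.98 and 0.06.

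Of 15 genes of GABAergic interneurons, 4 were higher in entorhinal cortex and 3 lower (median 0.00), beside 16.9% and 25.0% of all genes. Reln, a secreted protein that entorhinal layer 2 stellate cells make in addition to interneurons, read 11.07, 11.20 and 11.62 in entorhinal cortex, against 9.02, 9.52 and 9.78 in hippocampus, a difference of 1.73 ± 0.09 (limma adjusted p = 2.56e-10). The peptide gene Vip was higher by 0.86 ± 0.10 and Tac1, which encodes substance P, by 0.71 ± 0.12, both without overlap. Htr3a, a serotonin-gated channel, differed by -0.56 ± 0.12. Of 19 neuropeptide precursors, 8 were higher and 6 lower. Trh, the precursor of thyrotropin-releasing hormone, read 4.70, 6.20 and 8.31 in entorhinal cortex, against 4.30, 4.47 and 4.87 in hippocampus (1.70 ± 0.41), so its entorhinal arrays were far apart from each other. Scg2, a secretogranin, was the most even of the lower genes (-1.01 ± 0.06), and Nmb, the precursor of neuromedin B, differed by -1.0 ± 0.10.

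Of 34 axon guidance genes, 10 were higher and 13 lower, and of 21 cadherins and protocadherins 9 were higher and 4 lower. Of 22 genes of the Wnt pathway, 10 were higher and 3 lower. Among all genes, 16.9% were higher and 25.0% lower. Sema3a, a secreted repellent, read 8.12, 8.37 and 8.94 in entorhinal cortex, against 5.70, 6.05 and 6.30 in hippocampus (2.39 ± 0.11, limma adjusted p = 1.03e-10). Its relatives Sema5a and Sema3e went the other way, with differences of -2.25 ± 0.11 and -1.49 ± 0.11. Efna5, an ephrin ligand, was higher by 1.29 ± 0.15, and the Eph receptors Epha6 and Epha7 were lower, with -1.37 ± 0.11 and -1.34 ± 0.11. Ntng1, a netrin-like adhesion molecule, was higher by 1.62 ± 0.08.

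Among protocadherins, Pcdh7 was higher by 1.14 ± 0.14 and Pcdh20 lower. Pcdh20 read 8.15, 8.60 and 8.99 in entorhinal cortex, against 10.72, 10.84 and 10.98 in hippocampus (-2.25 ± 0.08, limma adjusted p = 8.62e-12). Cdh13, a cadherin with no intracellular domain, was higher by 1.13 ± 0.09. In the Wnt pathway, the agonist Rspo2 was higher by 1.11 ± 0.10, the secreted antagonist Sfrp1 by 1.04 ± 0.12 and the receptor Fzd3 by 0.95 ± 0.06. The antagonist Frzb differed by -1.32 ± 0.16. Enzymes of retinoic acid synthesis were opposed, with Aldh1a2 higher by 1.22 ± 0.21 and Aldh1a1 lower (-1.38 ± 0.22). Aldh1a2 is an enzyme of meningeal cells, and the part of meningeal tissue in its difference was not tested.

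**Figure D2:**
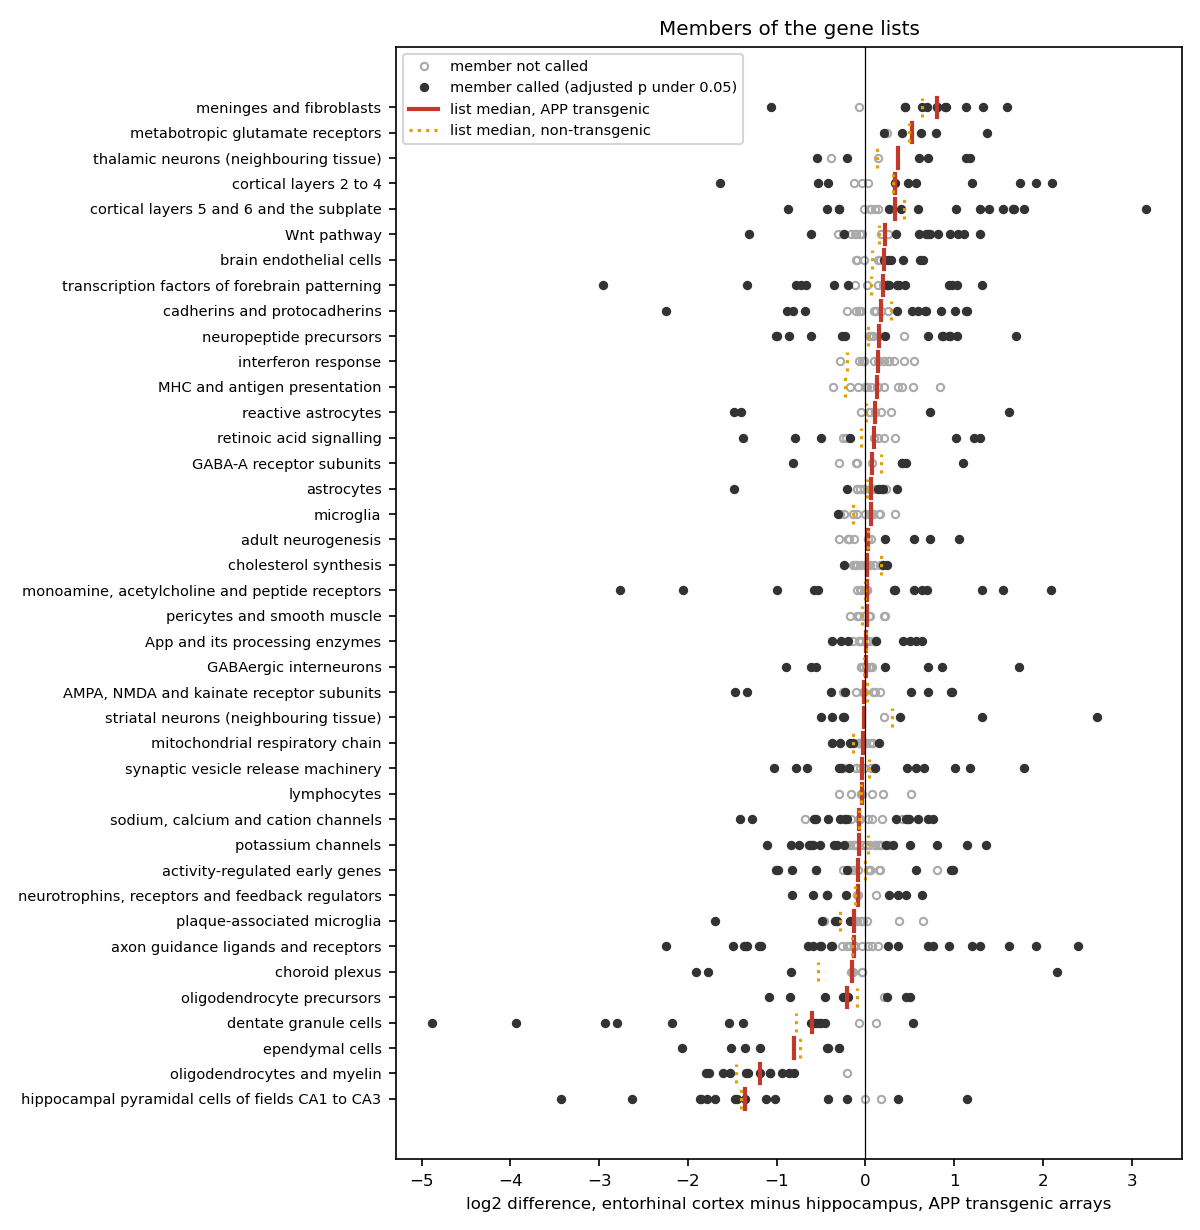
Log2 difference, entorhinal cortex minus hippocampus, of each member of the 40 gene lists on the APP transgenic arrays (horizontal axis), with lists ordered by their median. Filled points passed the test and open points did not. The red bar is the list's median in APP transgenic arrays and the dotted bar that in non-transgenic arrays, at -1.19 and -1.45 for oligodendrocyte genes and at 0.81 and 0.64 for meningeal genes.

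Myelin genes were lower in entorhinal cortex. Of 13 genes of oligodendrocytes and myelin, 12 were lower and 0 higher, with a median of -1.19, beside 25.0% and 16.9% of all genes. Their mean was 7.04 to 8.66 on entorhinal arrays and 9.10 to 9.72 on hippocampal arrays. Mog, a myelin surface protein, read 4.59, 5.68 and 6.63 in entorhinal cortex, against 6.89, 7.27 and 7.88 in hippocampus (-1.61 ± 0.23, limma adjusted p = 2.37e-05). Mobp differed by -1.79 ± 0.33, Ermn by -1.76 ± 0.32 and Mag, an axon-facing adhesion protein, by -1.52 ± 0.18. Entorhinal BDNF array 3 was lowest for all 4 genes. Without it, the median was -1.09 and 12 of 13 genes were still lower.

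Precursor genes of the lineage were divided, with 3 of 10 higher and 5 lower, beside 16.9% and 25.0% of all genes. Pdgfra, the growth factor receptor of precursors, was higher by 0.50 ± 0.07, and Bcas1, which marks cells that begin to myelinate, differed by -1.09 ± 0.13. Of 15 astrocyte genes, 4 were higher and 2 lower (median 0.07). Gfap, the intermediate filament of astrocytes, read 8.78, 9.02 and 9.92 in entorhinal cortex, against 9.96, 10.56 and 11.57 in hippocampus, and differed by -1.48 ± 0.22 (limma adjusted p = 3.77e-05). The connexin Gjb6 was higher by 0.36 ± 0.08. In the reactive astrocyte list, Cd44, the hyaluronan receptor, was higher by 1.62 ± 0.11 and Serpina3n, a protease inhibitor, differed by -1.41 ± 0.23.

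Microglial genes differed little. Of 17, 0 were higher and 1 lower, Trem2, a lipid-sensing receptor (-0.31 ± 0.11, limma adjusted p = 0.0305). The call of Trem2 ended without entorhinal BDNF array 2 or 4, entorhinal GFP array 1, 2 or 3, hippocampal BDNF array 1 or hippocampal GFP array 1, 2 or 3, each left out alone (-0.27 to -0.30, limma adjusted p of 0.0516 to 0.0615). Of 16 genes of plaque-associated microglia, 5 were lower and 0 higher, where 25.0% of all genes were lower, so the count of lower genes stood near the background. They were led by Lpl, a lipoprotein lipase that hippocampal neurons also express (8.92, 9.51 and 10.34 in entorhinal cortex, against 11.02, 11.29 and 11.77 in hippocampus; -1.69 ± 0.16). Csf1, a microglial growth factor, differed by -0.49 ± 0.08 and the lysosomal protease Ctsd by -0.35 ± 0.09.

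Genes of antigen presentation varied more within a region than between the regions. Of 13 MHC genes and 15 interferon-response genes, 0 were called in either direction, where 41.9% of all genes were called. H2-Aa, a class II MHC chain, read 7.17, 9.13 and 11.89 on entorhinal arrays, against 5.93, 8.35 and 10.70 on hippocampal arrays, a difference of 0.84 ± 0.74 (limma adjusted p = 0.391). Of 8 lymphocyte genes, 0 were called, and Ighm, the heavy chain of immunoglobulin M, read 7.17 at the median and 13.23 at highest in entorhinal cortex, against 7.25 and 12.81 in hippocampus.

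Markers of tissues that border the dissections did not all go 1 way. Of 8 ependymal genes, 7 were lower in entorhinal cortex and 0 higher (median -0.81), with Tmem212 at -2.07 ± 0.15 and the dynein light chain gene Dynlrb2 at -1.51 ± 0.14. The ependymal mean was 5.18 to 5.49 on entorhinal and 6.11 to 6.69 on hippocampal arrays. Of 8 choroid plexus genes, 3 were lower and 1 higher, beside 25.0% and 16.9% of all genes. Ttr, the thyroxine carrier transthyretin and the most abundant choroid plexus transcript, read 5.25, 6.38 and 9.33 in entorhinal cortex, against 6.83, 8.55 and 9.76 in hippocampus (-1.77 ± 0.53, limma adjusted p = 0.013), with overlap. Its call ended with all 26 arrays in 1 fit (limma adjusted p = 0.0565). Kcnj13, a potassium channel on the same list, was higher in entorhinal cortex by 2.16 ± 0.20 without overlap.

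Of 13 genes of meninges and fibroblasts, 11 were higher in entorhinal cortex and 1 lower (median 0.81). The collagen gene Col1a2 read 7.97, 8.92 and 9.37 in entorhinal cortex, against 6.51, 7.20 and 7.69 in hippocampus (1.59 ± 0.21), and Lum, a proteoglycan, was the lower one (-1.07 ± 0.15). Of 12 endothelial genes, 6 were higher and 0 lower, led by the drug efflux pump Abcb1a (0.65 ± 0.11), and of 8 genes of pericytes and smooth muscle 0 were called. Striatal and thalamic genes, markers of tissue next to a dissection, were 3 of 8 higher with 4 lower and 4 of 8 higher with 2 lower. The shares over all genes were 16.9% higher and 25.0% lower. Gpr6, Drd1 and Slc17a6, described above, are on those lists. The part of neighbouring tissue in the regional differences was not tested.

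Genes of the amyloid pathway went both ways, with 5 of 17 higher and 3 lower (median 0.01), beside 16.9% and 25.0% of all genes. Bace1, the beta-secretase, read 9.78, 10.01 and 10.07 in entorhinal cortex, against 9.16, 9.39 and 9.57 in hippocampus, and was higher by 0.57 ± 0.06 (limma adjusted p = 1.64e-06). Its 3 dimmer probe sets read between -0.16 and 0.04. Of the gamma-secretase subunits, Aph1b was higher by 0.64 ± 0.09 and Psen2 by 0.42 ± 0.06. App itself was higher by 0.12 ± 0.04 (limma adjusted p = 0.0227), a call that ended after renewed quantile normalization (0.06, adjusted p = 0.218).

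Bdnf was lower in entorhinal cortex, where the vector had been given. It read 7.71 to 8.45 on the 4 entorhinal BDNF arrays and 7.56 to 8.12 on the 4 entorhinal GFP arrays, against 8.57 to 8.99 and 8.35 to 9.16 on the hippocampal BDNF and GFP arrays. The difference was -0.82 ± 0.14 (limma adjusted p = 0.000123), with -0.70 on BDNF arrays and -0.95 on GFP arrays. Ntrk2, which encodes TrkB, was higher by 0.27 ± 0.07, and Ntrk3, the receptor for neurotrophin-3, differed by -0.43 ± 0.09, while 1 of its dimmer probe sets read 0.74. Of 12 genes of neurotrophin signalling and its feedback, 4 were higher and 5 lower, beside 16.9% and 25.0% of all genes. Spred1, an inhibitor of Ras signalling, was higher by 0.63 ± 0.07 on its brightest probe set. Of its dimmer probe sets 3 differed by 0.54 to 1.26, while the other 4 read -0.29, -0.14, -0.28 and -0.05. The phosphatase gene Dusp4 differed by -0.59 ± 0.13. Of 19 activity-regulated early genes, 3 were higher and 5 lower, near the 16.9% and 25.0% of all genes. Among them, Dusp1 was higher by 0.97 ± 0.15 and Nr4a3, an orphan nuclear receptor, differed by -1.01 ± 0.12.

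Genes with general cell functions showed small differences. Of 19 genes of the respiratory chain, 1 was higher and 4 were lower (median -0.02), led by Uqcrc1 of complex III (-0.37 ± 0.05). Of 15 genes of cholesterol synthesis, 2 were higher and 1 lower (median 0.02), led by the synthase Hmgcs1 (0.24 ± 0.06). The shares over all genes were 16.9% higher and 25.0% lower.

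**Figure D3:**
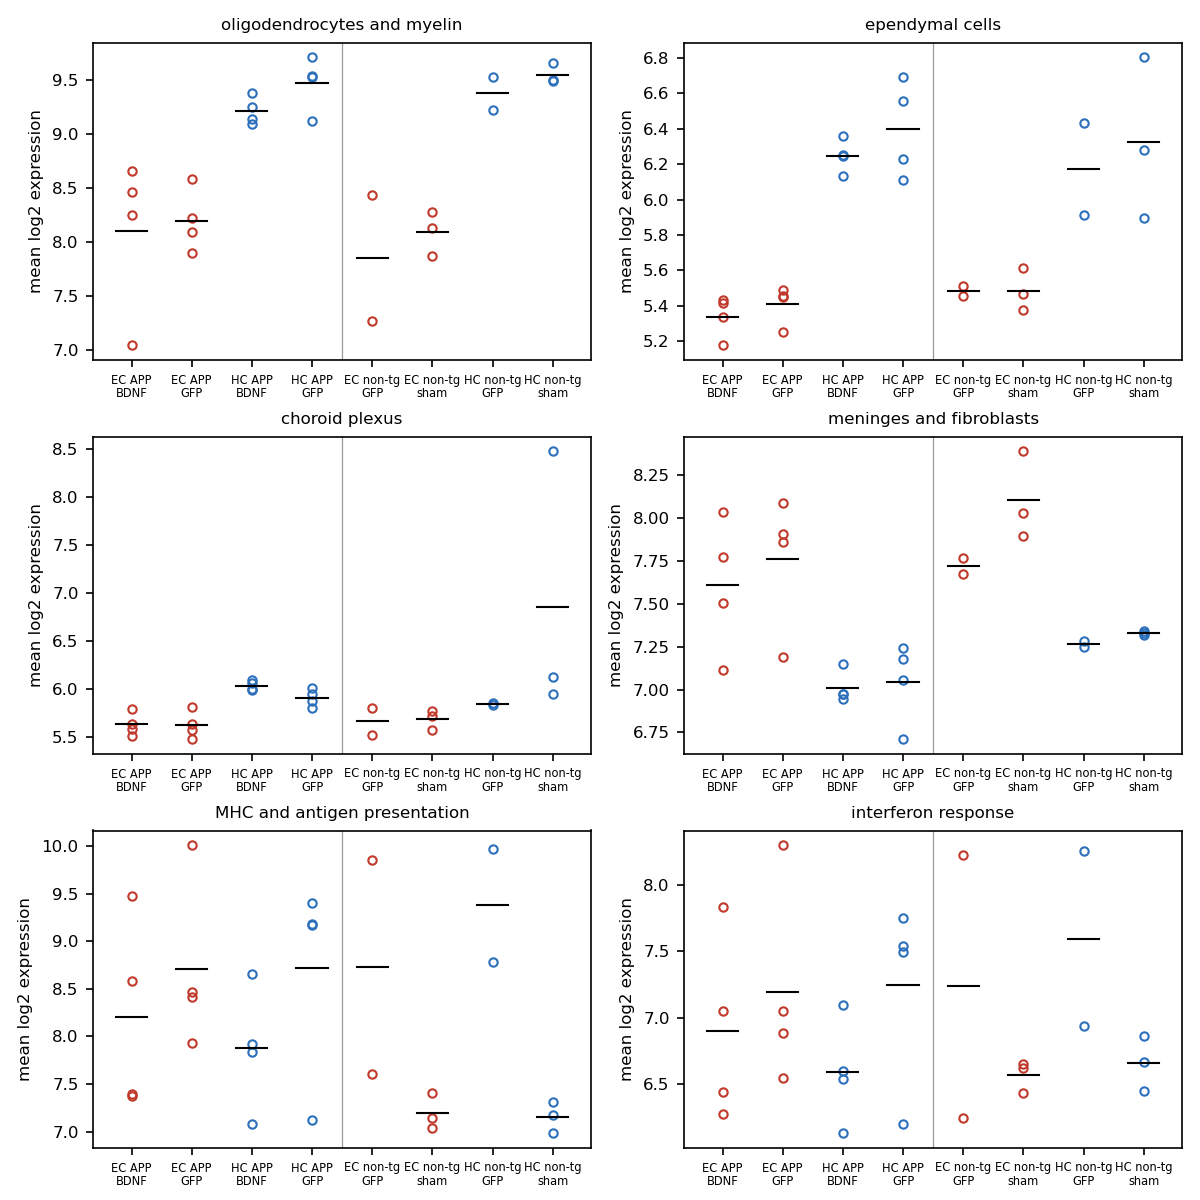
Mean log2 expression over the members of 6 gene lists (vertical axis, its range set for each list) on each array, APP transgenic groups left of the grey line and non-transgenic groups right of it, red for entorhinal cortex and blue for hippocampus, with a bar at each group's mean. The oligodendrocyte mean is 7.04 to 8.66 in entorhinal cortex and 9.10 to 9.72 in hippocampus of APP transgenic mice, and the choroid plexus mean of 1 hippocampal sham array is 8.48.

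Which of these regional differences depart from those of non-transgenic mice was tested as the difference of the regional contrasts, APP transgenic minus non-transgenic, over all 26 arrays. Genotype cannot be fully told apart from treatment there, since BDNF arrays were all APP transgenic and sham arrays all non-transgenic. It was also unbalanced for Xist, above 7 on 8 of 16 APP transgenic and 10 of 10 non-transgenic arrays. Limma called 0 of 14941 genes (0.0%). An unadjusted p under 0.05 was reached by 923 genes (6.18%), 450 above 0 (3.01%) and 473 below (3.17%). The smallest adjusted p was 0.196. With GFP arrays alone on both sides, 0 genes were called and 189 genes (1.26%) reached an unadjusted p under 0.05. The smallest adjusted p was then 0.9999. A gene that misses the threshold is not thereby shown to be alike. The 95% interval of the difference lay within -1 and 1 for 14664 genes (98.2%) and within -0.5 and 0.5 for 12534 (83.9%). With GFP arrays alone, 14178 genes (94.9%) lay within -1 and 1.

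Each genotype's own contrast, set side by side, rested on separate arrays. Non-transgenic arrays gave 5950 called genes (39.8%), 2281 higher in entorhinal cortex (15.3%) and 3669 lower (24.6%). Across genes, the differences in APP transgenic and non-transgenic arrays correlated at r = 0.932, as a description over 14941 genes, which are not independent. Of the 441 genes called in APP transgenic arrays with a difference of at least 1, 441 had the same sign in non-transgenic arrays and 431 were also called there. Their median size was 1.33 in APP transgenic arrays and 1.34 in non-transgenic arrays. Genes called with the same sign in both genotypes numbered 4560, which is 72.8% of the calls in APP transgenic arrays and 76.6% of those in non-transgenic arrays. A gene called with opposite signs, the only one, was Dhrs2, a dehydrogenase of the short-chain family (-0.19 ± 0.07 in APP transgenic and 0.19 ± 0.06 in non-transgenic arrays). The difference of its contrasts was -0.38 ± 0.10 (limma adjusted p = 0.781), and it is named after its values were seen.

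**Figure D4:**
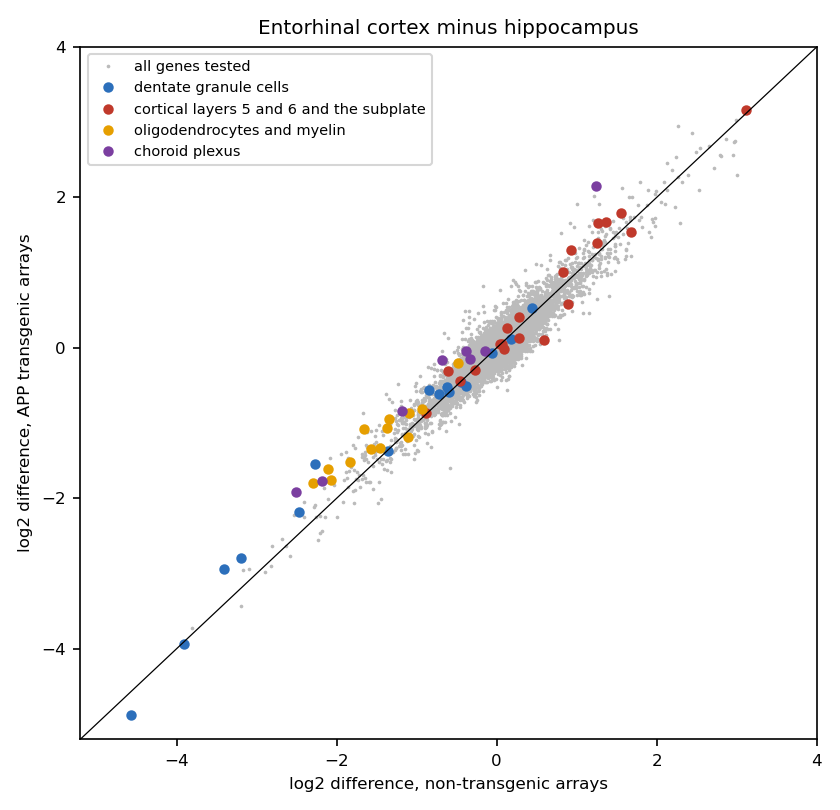
Log2 difference between entorhinal cortex and hippocampus of each of 14941 genes in APP transgenic arrays (vertical axis) and in non-transgenic arrays (horizontal axis), with the line of equality and 4 gene lists in colour. Dentate granule cell genes extend to -4.88 in APP transgenic and -4.57 in non-transgenic arrays for Dsp, and 12 of 13 oligodendrocyte genes lie above the line.

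For the leading genes the intervals were wide enough to hold sizeable changes. The regional difference of Dsp was -4.88 in APP transgenic and -4.57 in non-transgenic arrays, and their difference was -0.32 (95% interval -1.0 to 0.36). For Ccn2 it was 3.16 in APP transgenic and 3.12 in non-transgenic arrays, a difference of 0.05 (-0.71 to 0.80). For Tdo2 the values were -2.94 in APP transgenic and -3.41 in non-transgenic arrays, a difference of 0.47 (0.02 to 0.91) at an unadjusted p of 0.0405 and a limma adjusted p of 0.796.

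The 5 genes with the smallest p for that difference were Nmral1, Oosp3, Ebf2, Pofut2 and Endog. Nmral1, a redox-sensing protein that binds NADPH, read 5.87, 6.11 and 6.35 at the lowest, median and highest entorhinal APP transgenic array and 6.29, 6.48 and 6.57 in the hippocampus of APP transgenic mice. Its entorhinal non-transgenic arrays read 5.66 and 5.68 with GFP and 5.59, 5.35 and 5.71 with sham lesion, and its hippocampal ones 6.48 and 6.26 with GFP and 6.68, 6.65 and 6.71 with sham lesion. All 5 entorhinal non-transgenic arrays lay below the 8 entorhinal APP transgenic arrays, while the hippocampal arrays overlapped. Nmral1 was picked by its p on these same arrays, so this separation is no further support. Its regional difference was -0.37 ± 0.07 in APP transgenic and -0.96 ± 0.10 in non-transgenic arrays, a difference of 0.58 ± 0.10 (95% interval 0.37 to 0.80, limma adjusted p = 0.196). Without entorhinal BDNF array 4 it passed the threshold (0.63, limma adjusted p = 0.0147), and with GFP arrays alone it was 0.21 (-0.11 to 0.54).

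Ebf2, a helix-loop-helix transcription factor, read 4.70, 5.12 and 5.42 on entorhinal APP transgenic arrays and 4.23, 4.48 and 4.51 on hippocampal ones. Its entorhinal non-transgenic arrays read 5.13 and 6.12 with GFP and 5.77, 5.83 and 5.57 with sham lesion, and its hippocampal ones 4.34 and 4.38 with GFP and 4.29, 4.17 and 4.19 with sham lesion. The regional difference was 0.68 ± 0.07 in APP transgenic and 1.41 ± 0.15 in non-transgenic arrays, a difference of -0.73 ± 0.16 (95% interval -1.07 to -0.39, limma adjusted p = 0.781). It passed the threshold without entorhinal non-transgenic GFP array 1 (-0.92, limma adjusted p = 0.00192). The other 3 genes had smaller differences of contrasts, with -0.32 ± 0.06 for Oosp3, an oocyte-secreted protein, -0.38 ± 0.09 for Pofut2, a protein O-fucosyltransferase, and 0.35 ± 0.08 for Endog, a mitochondrial nuclease.

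With GFP arrays alone, the 5 genes with the smallest p were Slc7a9 (-0.59 ± 0.12), Fst (1.63 ± 0.39), Nynrin (-0.71 ± 0.17), Prag1 (0.81 ± 0.21) and Cytip (-0.54 ± 0.14). Fst encodes follistatin, which binds activins. On GFP arrays it read 5.02, 4.88, 5.88 and 5.35 in entorhinal cortex and 5.0, 5.74, 5.28 and 6.22 in hippocampus of APP transgenic mice. On GFP arrays of non-transgenic mice it read 5.02 and 4.89 in entorhinal cortex and 7.15 and 6.56 in hippocampus, so the hippocampal GFP arrays of the genotypes did not overlap. The hippocampal sham arrays of Fst read 5.76, 5.31 and 5.58, within the range of the hippocampal APP transgenic arrays. With only 2 non-transgenic arrays per region behind these values, the 95% interval for Fst ran from 0.82 to 2.43. Fst was picked by its p on these same GFP arrays, so the lack of overlap is no further support.

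**Figure D5:**
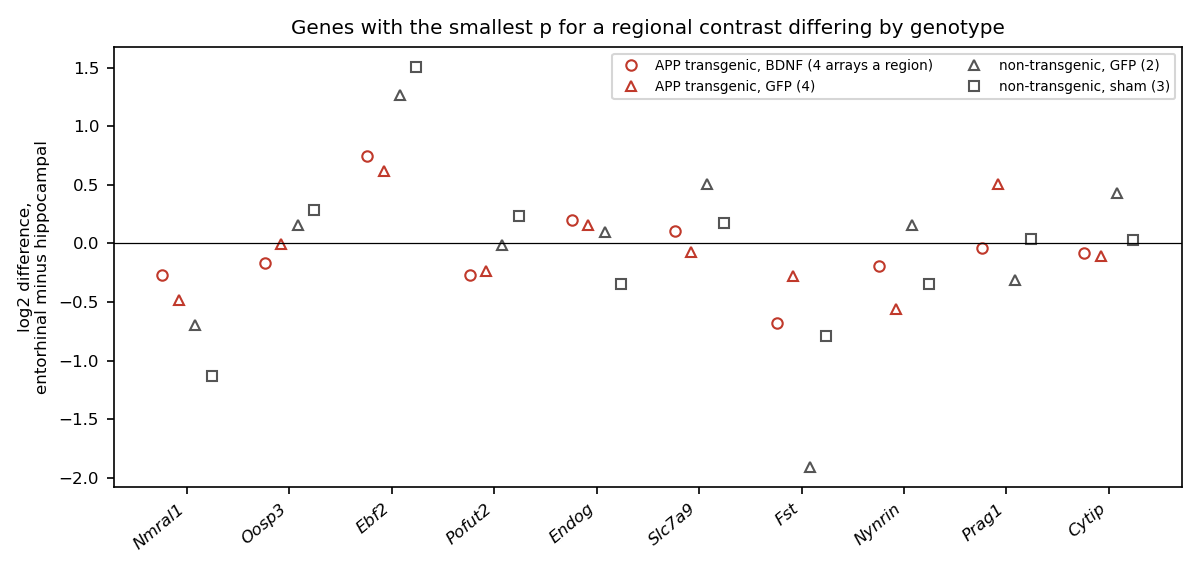
Log2 difference, entorhinal cortex minus hippocampus (vertical axis), within each genotype and treatment for the 5 genes with the smallest p over all arrays and the 5 with the smallest p over GFP arrays, with group means of 2 to 4 arrays per region behind each symbol and no error drawn. For Nmral1 and Ebf2 both APP transgenic symbols lie nearer to 0 than both non-transgenic symbols, while for Fst only the non-transgenic GFP symbol stands apart.

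Some lists leaned to 1 side in that difference, and no member of any list was called. Over all genes, 54.6% lay above 0, with a median of 0.02. Of 13 oligodendrocyte genes, 12 lay above 0 (median 0.30), so their regional difference was less negative in APP transgenic arrays, and of 15 interferon-response genes 15 did (0.33). Of 13 MHC genes, 12 lay above 0 (0.43), and of 8 choroid plexus genes 8 did (0.37). Of 19 respiratory chain genes, 18 lay above 0 (0.08), while 13 of 15 cholesterol synthesis genes lay below it (median -0.11).

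Single arrays moved with these values. The choroid plexus mean was 8.48 on hippocampal sham array 1, against 5.83 to 6.12 on the other 4 hippocampal non-transgenic arrays, and Ttr read 13.75 there. Hippocampal sham array 1 enters the non-transgenic side of the contrast. The oligodendrocyte mean of entorhinal BDNF array 3 was 7.04 and that of array 2 of the entorhinal non-transgenic GFP group was 7.27, while the remaining 11 entorhinal arrays had 7.87 to 8.66. Without these 3 arrays, a choice made after seeing the data, choroid plexus genes had a median of -0.01 with 4 of 8 above 0. MHC genes had 0.07 with 7 of 13 above 0, interferon-response genes 0.07 with 9 of 15, and oligodendrocyte genes 0.23 with 12 of 13. Without entorhinal BDNF array 3 alone, the medians were 0.46 for oligodendrocyte genes, 0.49 for interferon-response genes and 0.61 for MHC genes. With sham arrays alone as the non-transgenic side, the oligodendrocyte median was 0.24 with 11 of 13 above 0, and with GFP arrays alone on both sides it was 0.20 with 11 of 13, where 44.1% of all genes lay above 0. With sham arrays alone as the non-transgenic side, the median was 0.16 for MHC genes (9 of 13 above 0), 0.15 for interferon-response genes (15 of 15) and 0.78 for choroid plexus genes (8 of 8). With GFP arrays alone it was 0.57 for MHC genes (13 of 13), 0.26 for interferon-response genes (12 of 15) and -0.04 for choroid plexus genes (3 of 8).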

How the data were processed

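The 26 samples were hybridised singly to Affymetrix mouse arrays. The values are log2 expression as deposited by the authors, made with RMA per the submitters' processing notes. RMA corrects background, normalizes all arrays to 1 distribution and summarises the probes of a probe set, so differences are relative and compressed for dim probe sets. No source used here gives its version. The 45101 probe sets held 0 missing values. Of these, 34958 had 1 gene symbol in the platform annotation, 932 had several and 9211 had none. Symbols of 34754 were updated through their Entrez identifier. Each gene took the probe set with the highest mean over the 26 arrays, and a gene had to reach the 30th percentile of probe set means (4.33), which kept 14941 of 18194 genes. The number of arrays limits the precision.

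Groups came from the sample titles. Differences were fitted with limma 3.58.1 (R 4.3.3), lmFit and eBayes, 2-sided, with Benjamini-Hochberg adjustment over all genes tested and a threshold of 0.05. The regional contrast used the 16 APP transgenic arrays with treatment as a covariate, the same was done for the 10 non-transgenic arrays, and the difference of the contrasts used all 26 arrays in 8 groups. A repeat used GFP arrays only. The fits were tested on simulated data. Same-numbered arrays of the regions were not paired.

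Of 672 genes in 40 lists, 614 had a probe set and 589 were tested. The members and the lists were chosen with earlier results of these data known. Named genes are the 12 per direction with the largest difference among called genes without overlap, the 5 with the smallest p for each difference of contrasts, up to 4 called members per direction of each list (the 2 largest differences where none was called), and App, Thy1, St13, Bdnf, Ntrk2 and Gfap. Exceptions are stated as named after their values were seen. St13 differed by 0.03 between the regions. Alternatives changed the filter, probe set rule, normalization, centring, eBayes options, array weights, replicate block, an Xist covariate and the arrays used.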

Additional observations from a re-analysis of the deposited data

Results flagged for a closer look

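Of 160 sets of 8 APP transgenic arrays of 1 region, for named genes and for list means, 12 had 1 array set apart from the other 7 by Dixon's criterion. Chance sets an array apart in about 1 in 20 such sets. Entorhinal BDNF array 3 was the array concerned in 3 of the 12. It had an oligodendrocyte mean of 7.04, an oligodendrocyte precursor mean of 7.68 and a Pou3f1 value of 6.54, each the lowest of the entorhinal arrays. Entorhinal BDNF array 1 was lowest for Shisa6 (5.96) and for the mean over ionotropic glutamate receptor subunits (8.17). Entorhinal BDNF array 2 was highest for Ptger3 (7.78), and entorhinal BDNF array 4 was highest for Dsp (5.04). Entorhinal GFP array 4 had the highest lymphocyte mean (7.67). Among hippocampal arrays, GFP array 2 was lowest for Prag1 (8.25) and for the interneuron mean (9.06), GFP array 3 was lowest for the cadherin mean (8.56), and BDNF array 3 was highest for the ionotropic glutamate receptor mean (8.46).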

How the results depend on the processing

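The count of regional calls in APP transgenic arrays, 6266, lay between 5767 and 6363 when each array was left out in turn. It was 13568 of 45101 probe sets taken singly, 3723 with BDNF arrays only, 3350 with GFP arrays only and 441 with a difference of at least 1 required as well. The last 3 use fewer arrays or a stricter rule. The other settings gave 5738 to 6815. Of 237 named genes, 17 changed call when 1 array was left out, 45 lost it with BDNF arrays only and 51 with GFP arrays only. When all probe sets of a gene were averaged, 4 named genes turned sign and were no longer called: Pde10a (0.0433), Fgfr3 (-0.0451), Syp (0.0738) and Cox5a (0.0289). Their other probe sets read -0.30, 0.33, 0.05 and 0.38 for Pde10a, -0.23 for Fgfr3, 0.44 for Syp, and 0.14 and 0.08 for Cox5a. Each average thus mixed probe sets of both signs. The non-transgenic count, 5950, lay between 4949 and 6163 with each array left out, and was 11931 of all probe sets. The difference of the contrasts gave 0 to 2 calls with each array left out and 0 with GFP arrays only. It gave 2 calls without entorhinal non-transgenic GFP array 1 (Ebf2 and Ajap1), 1 without entorhinal BDNF array 4 (Nmral1) and 2 without hippocampal sham array 2 (Agbl5 and Rpl27a), and the cause was not tested. The replicate numbers did not pair the arrays: of 8 same-numbered pairs of APP transgenic arrays, 1 correlated above 0.1 in its deviations (range -0.487 to 0.479). Only 1 entorhinal array correlated best with its own number. Other numbers did match as each other's best. Entorhinal BDNF arrays 1, 2, 3 and 4 matched hippocampal 1, 3, 4 and 2, and sham arrays 1, 2 and 3 matched 2, 3 and 1. Entorhinal transgenic GFP arrays 3 and 4 matched hippocampal 4 and 1, while arrays 1 and 2 had no mutual match. Whether matched arrays share an animal was not tested, and no fit paired them. The 2 non-transgenic GFP pairs, whose deviations mirror each other with 2 arrays a group, correlated at 0.470 and matched best with their own numbers, and the 3 sham pairs at -0.222 to 0.0792. The replicate block joins same-numbered arrays only. With it, 5738 genes were called in APP transgenic arrays and 13 of the 237 named genes changed call, App among them (limma adjusted p = 0.0777). Probe sets near background limit what the dimmest genes can show.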

Other observations

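Genes of antigen presentation and lymphocytes varied between arrays of both regions rather than with the region. The mean over 13 MHC genes was 7.38 to 10.01 on the 8 entorhinal and 7.08 to 9.40 on the 8 hippocampal APP transgenic arrays. On the 4 non-transgenic GFP arrays it was 9.85 and 7.60 in entorhinal cortex and 9.97 and 8.79 in hippocampus, while the 6 sham arrays, whose labels name no vector, lay between 6.98 and 7.41. The mean over 8 lymphocyte genes was 5.51 to 7.67 in entorhinal cortex and 5.41 to 7.33 in hippocampus of APP transgenic mice, and 5.18 to 5.49 on the 6 sham arrays. Entorhinal GFP array 4 of the APP transgenic mice had the highest MHC mean (10.01), interferon-response mean (8.30) and lymphocyte mean (7.67) of its region and genotype, and a microglial mean of 9.09. No test was run on these values.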
